A study of Mus musculus with 4 samples.

Results

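The genes described here are 10 telomere genes of mouse ES cells: the 7 that encode the shelterin complex (Terf1, Terf2, Terf2ip, Tinf2, Pot1a, Pot1b and Acd), the telomerase genes Tert and Dkc1, and the telomere helicase gene Rtel1. They were taken by symbol, as every non-control probe whose gene name in the array files equals one of the 10, which gave 16 of 39429 probes and 10 of 30199 gene names. The genes lie on 8 chromosomes, and 3 of them (Terf2, Terf2ip and Acd) lie on chromosome 8. For these genes the largest difference between Rif1 siRNA and control siRNA at 72 h, measured on both arrays, was that of Dkc1, 0.18 log2 units lower. This rank depends on the processing. Terf2ip A_55_P2094079 was furthest with another background correction (normexp) or with quantile normalization, at -0.21 in both. With outlier spots kept it was Pot1b, at -0.21. At 72 h 0 member probes passed 1.5-fold, against 7.9% of all probes.

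Total RNA of E14tg2a cells, an established feeder-free mouse ES cell line grown on gelatin in serum and LIF, was hybridized to 4 one-color Agilent arrays on a single slide. The conditions were untreated cells (taken as 0 h), a control siRNA of random sequence at 72 h, and Rif1 siRNA (a mixture of the duplexes mRif1#2 and NC#1) at 48 h and at 72 h. Each condition had 1 array, so no difference between conditions has a replicate check and none was tested except where limma is named. A control siRNA array at 48 h was not analysed here, so both Rif1 siRNA arrays are compared with the same control siRNA array at 72 h.

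Telomeres are the repeated sequences at chromosome ends. Shelterin covers them: Terf1 and Terf2 bind the double-stranded repeats, Tinf2 links them to each other and to Acd (TPP1), Acd brings in the Pot1 proteins on the single-stranded overhang, and Terf2ip (Rap1) binds Terf2. Telomerase, in which Tert is the reverse transcriptase and Dkc1 (dyskerin) stabilizes the RNA template, extends the repeats and is active in ES cells, and Rtel1 unwinds telomeric loops and other DNA structures. Rif1 is named for its binding to Rap1 at yeast telomeres, whereas in mammals it is known for the control of replication timing and of double-strand break repair.

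A level is the processed signal of a probe divided by the 75th percentile of all non-control spots of the same array. The level of one probe cannot be set against that of another. The scanner software gives each spot an error, 10% of a bright signal, and 1 such error of a difference between 2 arrays was 0.20 log2 units for the bright member probes. The spots of probes repeated on an array spread less, with a median SD of 0.06 to 0.07 log2 units, which gives 0.09 for a difference between 2 arrays. Both errors cover the measurement of a spot and not the spread between cultures. Of the 16 member probes, 15 passed a filter on dim probes modelled on the study's methods, which do not define it fully, as did 27706 of all 39429 probes, and 14 were well above background on all 4 arrays. The spots well above background made up 58.8% on the untreated array, 62.8% with the control siRNA, 71.5% with Rif1 siRNA at 48 h and 74.1% at 72 h, so the dimmest probes were more often measurable on the Rif1 siRNA arrays.

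The targeted gene checked the labels. Rif1 (A_55_P2015964, chr2:51977508-51977567 of mm9, plus strand) had a level of 5.55 in untreated cells, 5.42 with the control siRNA, 2.15 with Rif1 siRNA at 48 h and 4.15 at 72 h. It was thus 2.53-fold lower than the control at 48 h (log2 difference -1.34) and 1.31-fold lower at 72 h (-0.39). Markers of ES cells (13 probes of Pou5f1, Sox2, Nanog, Zfp42, Esrrb, Klf4, Dppa4 and Utf1) had summed levels of 228 to 238, to which the bright probes contribute most, and 12 to 13 of them were well above background on each array. At 72 h their log2 differences from the control siRNA ran from -0.69 (Nanog A_55_P2007699) to 0.59 (Pou5f1), with a median of -0.04, and these 2 of the 13 probes passed 1.5-fold (7.9% of all probes). The other Nanog probes were at 0.45 and 0.29. Markers of differentiated cells (20 probes of 15 genes, 16 to 17 of them well above background) had summed levels of 3.09 to 3.89. Between control siRNA and untreated cells 12 of the 16 measured on both arrays had negative log2 differences (median -0.33, with 52.4% of all measured probes negative), and 5 of the 17 that passed the filter, of Foxa2, Sox17, Sox7 and Eomes, were lower by over 1.5-fold (2.34% of all probes). At 48 h 12 of 16 had positive differences from the control siRNA (median 0.49, with 38.7% of all measured probes positive), and 2 of the 17 were higher by over 1.5-fold (6.83% of all probes). At 72 h 6 were positive and 10 negative (median -0.07), and 3 of the 17 were higher by over 1.5-fold (5.52% of all probes): Cdx2 2.11-fold, Col1a1 1.76-fold and Col1a2 1.77-fold. The part of such cells in the members' levels was not tested. Markers of the 2C-like state, a rare ES cell state resembling the embryo at the 2C stage, had summed levels over 9 probes of 12.4 in untreated cells, 21.4 with the control siRNA, 249 with Rif1 siRNA at 48 h and 288 at 72 h. In bulk RNA, fewer cells of a type and less RNA per cell cannot be told apart, nor can more cells and more RNA.

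Among the double-strand binding subunits, Terf1 (A_55_P2000304, chr1:15833432-15833491 of mm9, plus strand) had a level of 8.41 in untreated cells, 8.47 with the control siRNA, 8.02 with Rif1 siRNA at 48 h and 7.92 at 72 h. Both Rif1 siRNA arrays lay below both other arrays, by less than the software error of a difference: the log2 difference from the control siRNA was -0.08 at 48 h and -0.10 at 72 h. The steps between neighbours in this order of 4 levels were all smaller than that error.

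Terf2, whose product holds the telomere end in its protected loop, was read by 3 probes on the minus strand of chromosome 8. The probe A_55_P2034350 (chr8:109599420-109599479), which the array file assigns to transcript variant 2, had levels of 2.42, 2.13, 2.14 and 2.08 for untreated cells, control siRNA and Rif1 siRNA at 48 h and 72 h. With this probe the transfected cells lay close together and the untreated cells somewhat above them. The log2 difference between control siRNA and untreated cells was -0.19, within the software error of 0.20. The other Terf2 probes gave 0.09 (A_55_P2034345) and -0.03 (A_52_P391210) in that comparison. The probe A_55_P2034345 (chr8:109593822-109593881), assigned to transcript variant 1, had levels of 0.846, 0.901, 0.995 and 0.835 in the same order. Here the Rif1 siRNA array at 48 h was the highest and that at 72 h the lowest, a difference of -0.25 (software error 0.20) between the Rif1 siRNA arrays. The probe A_52_P391210 (chr8:109600701-109600760), whose entry lists transcripts of both variants, had levels of 0.263, 0.258, 0.234 and 0.233. It was lower on both Rif1 siRNA arrays, by 0.15 log2 units at 72 h, which is within the software error. The log2 differences of the 3 probes at 72 h lay between -0.15 and -0.04, and at 48 h between -0.14 and 0.14, so that at 48 h they did not share a direction.

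Terf2ip gave the widest spread of the members measured on all 4 arrays, and its probes disagreed at 48 h. The sequence of the one that did not stand apart there is printed. The probe A_55_P2094079 lies on the plus strand at chr8:114539293-114539352 of mm9, while A_52_P381806 lies 3082 bases further on, at chr8:114542435-114542494. The array file assigns both to the same transcript.
Terf2ip A_55_P2094079: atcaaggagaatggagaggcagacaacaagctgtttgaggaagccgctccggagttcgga
With A_52_P381806 the level was 0.616 in untreated cells, 0.649 with the control siRNA, 0.481 with Rif1 siRNA at 48 h and 0.617 at 72 h. The 48 h array stood alone below the other 3, at a log2 difference of -0.43 from the control siRNA, beyond the software error of 0.20. At 72 h the level was again that of untreated cells, with a difference of -0.07 from the control siRNA and of 0.36 from the 48 h array. With A_55_P2094079 the levels were 0.148, 0.143, 0.133 and 0.128 in the order of the conditions above. This second probe did not share the low value at 48 h: its log2 difference there was -0.11, within the software error, and the probes disagreed by 0.33 log2 units. At 72 h they disagreed by 0.09.

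**Figure D1:**
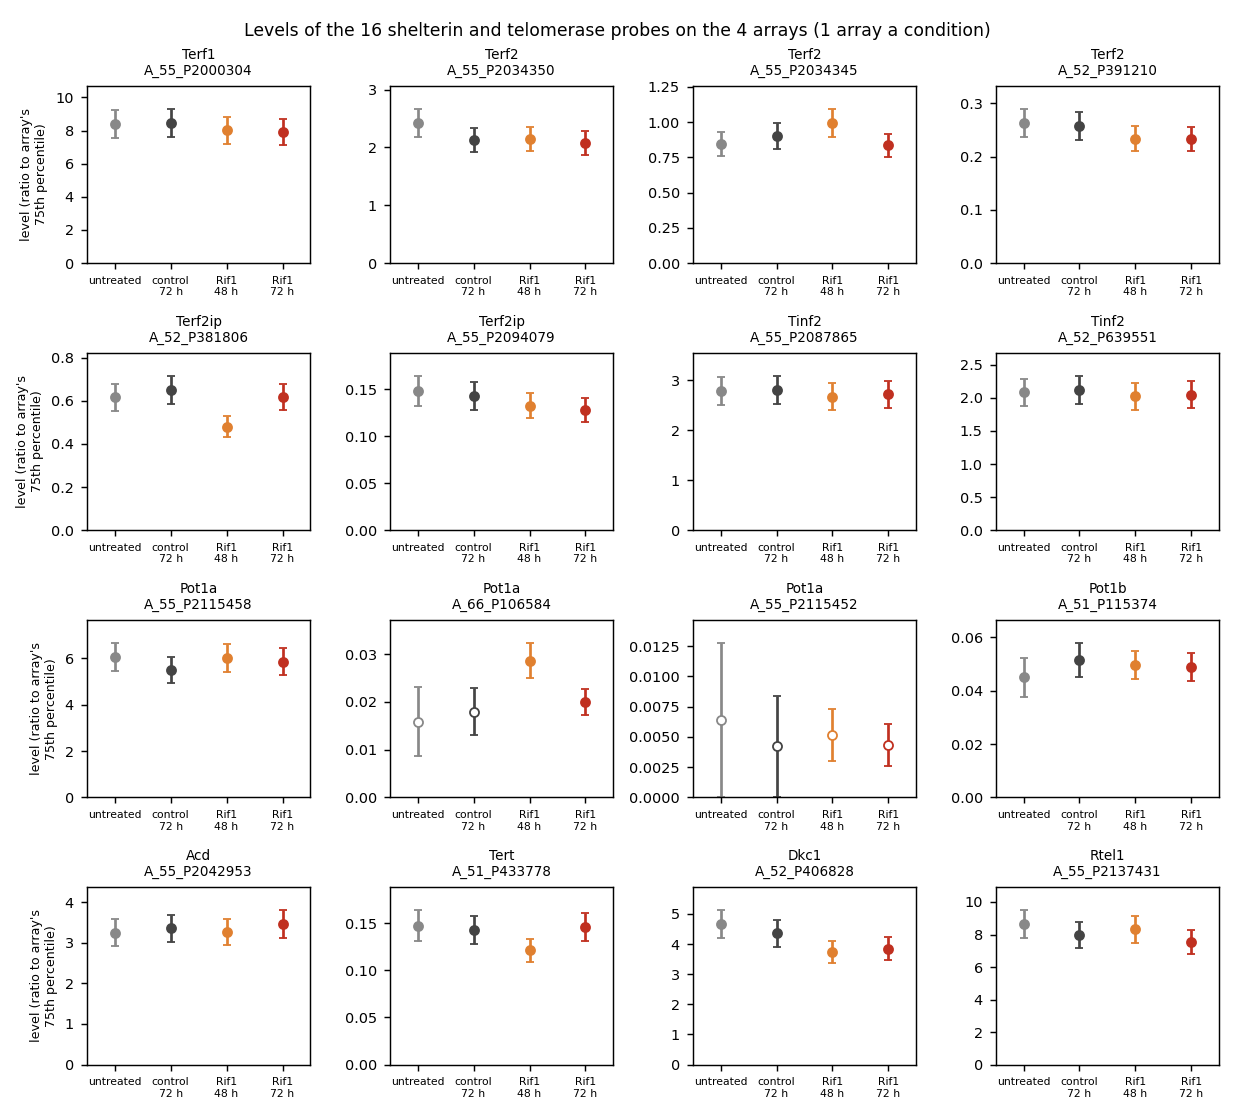
Level of each of the 16 member probes on the 4 arrays, as the ratio to the array's 75th percentile on linear axes that start at 0 and differ between panels. Points are single arrays, open points were not well above background, and bars are 1 software error of the spot; the array of Rif1 siRNA at 48 h stands below the others for Terf2ip A_52_P381806 (0.481 against 0.616 to 0.649).

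Tinf2, the bridge of the complex, was read by 2 abutting probes on the minus strand of chromosome 14, which are printed because they serve as an internal repeat of the measurement. A_55_P2087865 covers chr14:56298352-56298411 of mm9, and A_52_P639551 lies directly beside it, its 60 bases spread over chr14:56298188-56298351.
Tinf2 A_55_P2087865: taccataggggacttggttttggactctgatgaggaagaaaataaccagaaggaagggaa
Tinf2 A_52_P639551: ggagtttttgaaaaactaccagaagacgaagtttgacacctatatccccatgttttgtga
The first had levels of 2.79 in untreated cells, 2.80 with the control siRNA, 2.67 with Rif1 siRNA at 48 h and 2.71 at 72 h. The second had levels of 2.08, 2.12, 2.02 and 2.05 in the same order. Both probes gave the same order of the arrays, and their log2 differences from the control siRNA were -0.05 at 72 h and -0.07 at 48 h, within the software error. These log2 differences disagreed between the probes by 0.000921 at 72 h and 0.00261 at 48 h. For control siRNA against untreated cells the disagreement was 0.0178.

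Acd, which recruits telomerase as well as the Pot1 proteins, was read by A_55_P2042953 (chr8:108222138-108222197 of mm9, minus strand). Its levels were 3.25 in untreated cells, 3.36 with the control siRNA, 3.26 with Rif1 siRNA at 48 h and 3.45 at 72 h. The Rif1 siRNA arrays lay on opposite sides of the control siRNA, with log2 differences of -0.04 at 48 h and 0.04 at 72 h, both within the software error.

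The mouse has a pair of Pot1 genes. Pot1a had 3 probes on the minus strand of chromosome 6, and they were the only member probes that share a run of 16 bases, on either strand, with the probe of another gene. A stretch of 30 bases of each is shown to make that overlap visible, with the bases that belong to a shared run in capitals.
Pot1a A_55_P2115458, bases 17 to 46: ttttTGTGTCTGTGTGTGTGTGTGAATcat
Pot1a A_66_P106584, bases 25 to 54: tttacccTATTGGCAAATTCTCAtgtgatt
Pot1a A_55_P2115452, bases 16 to 45: agtagtcACAAAACCATTTCTTAaaagaca
The first, at chr6:25693898-25693957, shares its TG repeat with probes of 14 other gene names, while each of the others shares 1 run with a single gene name, Sox2 for A_66_P106584. Its levels were 6.05 in untreated cells, 5.50 with the control siRNA, 6.02 with Rif1 siRNA at 48 h and 5.85 at 72 h. The control siRNA array was the lowest of the 4, and the log2 differences from it, 0.13 at 48 h and 0.09 at 72 h, were within the software error. What part of this signal comes from other transcripts with the same repeat was not tested.

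The probe A_66_P106584 (chr6:25698860-25698919) was not well above background in untreated cells (0.0159) or with the control siRNA (0.0179), and had levels of 0.0286 with Rif1 siRNA at 48 h and 0.0199 at 72 h. With the control array not well above background, only nominal bounds can be given, 1.60-fold higher at 48 h (0.68 on the log2 scale) and 1.11-fold higher at 72 h (0.15). The software error of both differences was 0.44 log2 units, so the bound at 72 h lies within it. Here a bound sets the bright signal against the higher of the control's own signal and the lowest signal well above background on that array. For this probe the control's own signal was the higher. Its bounds are therefore plain ratios of the signals, and the true fold could be lower. The Rif1 siRNA arrays, both measured, differed by -0.53 log2 units between 72 h and 48 h, with a software error of 0.27. The probe A_55_P2115452 (chr6:25707696-25707755) was dim on every array (0.00639, 0.00421, 0.00515 and 0.00434, none well above background) and did not pass the filter, so no difference is given. The file assigns the bright probe to the RefSeq transcript of Pot1a and the other probes to transcripts without a RefSeq match in the table used here.

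Pot1b, the other single-strand binding subunit, is known in the mouse for limiting resection of the end. Its probe A_51_P115374 (chr17:55792319-55792378 of mm9, minus strand) was the only member probe spotted 10 times on each array, with 9 to 10 spots used after outliers were left out. The mean levels were 0.0451 in untreated cells, 0.0514 with the control siRNA, 0.0497 with Rif1 siRNA at 48 h and 0.0489 at 72 h. The SD over the spots of an array, on the log2 scale, was 0.20 on the untreated array, 0.20 on the control siRNA array, 0.08 at 48 h and 0.10 at 72 h. The log2 differences from the control siRNA (-0.05 at 48 h and -0.07 at 72 h) and that between control siRNA and untreated cells (0.19) were below the software errors of 0.24, 0.23 and 0.30. For this probe that error is the average over single spots and not the error of their mean. An error of the mean would be smaller and was not computed, so whether these differences lie within it is not known. The differences move with the processing: with outlier spots kept they became -0.18, -0.21 and 0.32, the last of them above 0.30. With normexp they were -0.12, -0.17 and 0.01, and with quantile normalization -0.13, -0.15 and 0.22.

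For the catalytic subunit of telomerase, Tert (A_51_P433778, chr13:73786429-73786488 of mm9, plus strand), the levels were 0.147 in untreated cells, 0.142 with the control siRNA, 0.121 with Rif1 siRNA at 48 h and 0.146 at 72 h. As with Terf2ip A_52_P381806, only the 48 h array stood apart, although the remaining arrays came in another order. The log2 difference from the control siRNA was -0.23 at 48 h, just beyond the software error of 0.21, and 0.04 at 72 h, and the Rif1 siRNA arrays differed by 0.27. The sign at 72 h depends on the scaling, with -0.01 under both normexp and quantile normalization. At 48 h the difference was -0.19 with normexp, within the software error, and -0.31 with quantile normalization.

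Dkc1 (A_52_P406828, chrX:72354473-72354532 of mm9, plus strand) is needed for ribosomal RNA modification as well as for telomerase. Its levels were 4.66 in untreated cells, 4.35 with the control siRNA, 3.74 with Rif1 siRNA at 48 h and 3.85 at 72 h. Both Rif1 siRNA arrays lay below both other arrays. The log2 difference from the control siRNA was -0.22 at 48 h, beyond the software error of 0.20, and -0.18 at 72 h, within it. With quantile normalization the difference at 48 h was -0.19, also within the software error.

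Rtel1 (A_55_P2137431, chr2:181091224-181091283 of mm9, plus strand) had levels of 8.63 in untreated cells, 7.96 with the control siRNA, 8.32 with Rif1 siRNA at 48 h and 7.54 at 72 h. The Rif1 siRNA arrays lay on either side of the control siRNA, at 0.06 at 48 h and -0.08 at 72 h, within the software error.

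Over the members as a group, 0 of the 15 probes that passed the filter changed by over 1.5-fold or over 2-fold at 72 h. Of all 27706 probes, 7.9% passed 1.5-fold in that comparison and 3.84% passed 2-fold. The 14 probes measured on both arrays had log2 differences of -0.18 to 0.09, 11 of them negative and 3 positive, with a median of -0.07 (12 and 2 with normexp or quantile normalization, where Tert turned negative). The median over all 24312 probes measured on both arrays was also -0.07 when rounded to 2 digits, with 63.1% of them negative and an SD of 0.51. The medians were thus alike. The share of negative values was 78.6% among the members, but it counts each probe of Terf2, Terf2ip and Tinf2 separately, all of them negative. Taking the brightest probe of each gene, Pot1a, Acd and Tert were positive and the other genes negative. Of the 14, 0 went beyond the software error, against 35.7% of all measured probes. With quantile normalization Terf2ip A_55_P2094079 was at -0.213, just beyond its error of 0.208. Against the smaller error from repeated spots, 5 of the 14 went beyond it (Terf1, Terf2 A_55_P2034345 and A_52_P391210, Terf2ip A_55_P2094079 and Dkc1), all lower, against 69.5% of all measured probes. With normexp background correction the shares of all probes were 4.09% past 1.5-fold and 1.95% past 2-fold, with 0 members past either.

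At 48 h, 0 members passed 2-fold (4.37% of all probes) and 1 passed 1.5-fold (10.1% of all probes), the Pot1a probe A_66_P106584 through its bound. This probe was well above background only on the Rif1 siRNA arrays, and the count became 0 with normexp, with quantile normalization and with only probes measured on all 4 arrays. With normexp the shares of all probes were 2.14% and 5.22%. The 14 measured differences had a median of -0.067, against -0.071 for all measured probes. With normexp these medians were -0.078 and -0.099, and with quantile normalization -0.048 and -0.069. The differences ran from -0.43 to 0.14, with 10 negative and 4 positive. The negative share was 71.4% among the members and 61.3% among all measured probes. It too counts each probe of Terf2, Terf2ip and Tinf2 separately. Beyond the software error lay 3 of the 14 (Terf2ip A_52_P381806, Tert and Dkc1), all lower, against 40.2% of all measured probes. Which probes lay beyond it depends on the scaling. Tert was at -0.19 with normexp, within its error of 0.21. With quantile normalization Dkc1 was at -0.19, within its error of 0.20, and Terf2 A_52_P391210 at -0.222, beyond its error of 0.205. Beyond the error from repeated spots lay 7 of the 14, against 73.8%. The comparisons at 48 h and 72 h share the control siRNA array.

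**Figure D2:**
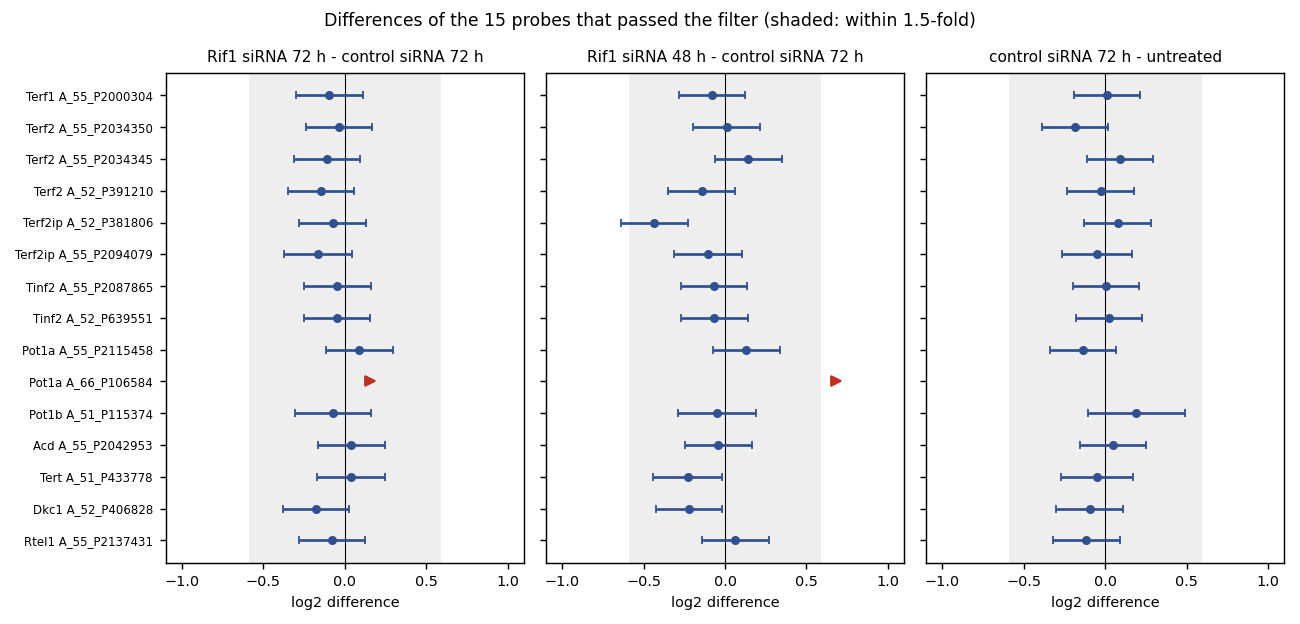
Log2 differences of the 15 member probes that passed the filter, for Rif1 siRNA at 72 h and at 48 h against control siRNA, and for control siRNA against untreated cells. Bars are 1 software error of the difference, triangles are nominal bounds where the control array was not well above background, and the shaded band is 1.5-fold. Only the 48 h bound of Pot1a A_66_P106584 (0.68) lies outside the band.

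The control siRNA array differs from the untreated array in transfection and, with untreated cells taken as 0 h, in 72 h of culture. These cannot be told apart. Between control siRNA and untreated cells 0 members passed 2-fold (1.62% of all probes) and 0 passed 1.5-fold (4.11%). The 14 measured differences ran from -0.19 to 0.19 with a median of -0.01, and 0 went beyond the software error (17.9% of all measured probes), while 6 went beyond that from repeated spots (51.4%). Between the Rif1 siRNA arrays 0 members passed 2-fold (1.18% of all probes) and 0 passed 1.5-fold (4.18%), while 4 of 15 measured probes went beyond the software error (24.5% of all): Terf2 A_55_P2034345 and Pot1a A_66_P106584 were lower at 72 h, and Terf2ip A_52_P381806 and Tert were higher. With normexp Pot1a A_66_P106584 was at -0.20 and Tert at 0.19, within their software errors of 0.27 and 0.21. Beyond the error from repeated spots lay 5 of the 15 (55.3% of all).

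Over all 4 arrays, the distance from the highest to the lowest array was 0.07 to 0.43 log2 units for the 14 members measured on each, with a median of 0.19. For all 22518 such probes the median was 0.27, and 13.6% exceeded 1.5-fold, against 0 of the 14 members. The widest member was Terf2ip A_52_P381806 at 1.35-fold, and the narrowest was Tinf2 A_52_P639551.

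**Figure D3:**
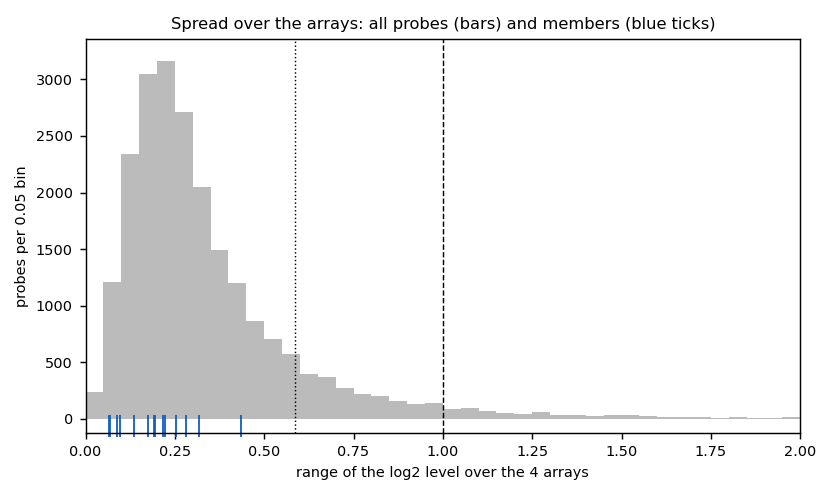
Histogram of the distance between the highest and lowest of the 4 arrays (log2) for the 22518 probes well above background on all 4, with blue ticks for the 14 member probes and lines at 1.5-fold (dotted) and 2-fold (dashed); the axis ends at 2.00. All ticks lie left of the dotted line, at 0.07 to 0.43.

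The only fit that uses more than 1 array a side sets the Rif1 siRNA arrays (48 h and 72 h) against the others (untreated and control siRNA), 2 against 2, so that its residual spread includes harvest time and transfection. In this limma fit 764 of 27697 probes had an adjusted p under 0.05 (2.76%; 727 higher and 37 lower), and 0 of the 15 member probes did. At an unadjusted p under 0.05 there was 1 member of 15, against 23% of all probes. That member was Dkc1, with a log2 difference of -0.25 (SE 0.07) and an adjusted p of 0.192, lower on 2 of 2 Rif1 siRNA arrays. The adjusted p of the members ranged from 0.192 to 0.854. Their fitted differences had a median of -0.07, and that of all probes was -0.05. The targeted gene Rif1 did not pass in this fit either, at -0.88 (SE 0.36) with a limma adjusted p of 0.254.

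The 3 genes whose profile over the 4 arrays lay nearest to that of Terf2ip A_52_P381806, by the root mean square distance of log2 levels centered on their mean, were Gadd45gip1 (0.00552), Irf2bp1 (0.00974) and Setd8 (0.0140). With 4 arrays many profiles are alike: 1654 of 22517 probes lay within a distance of 0.1.

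**Figure D4:**
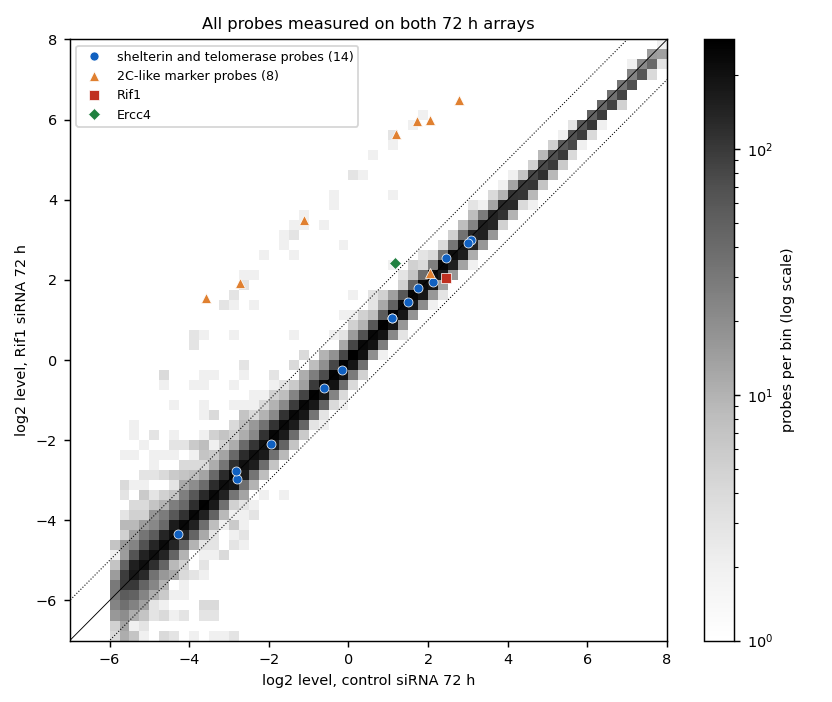
Log2 level with Rif1 siRNA at 72 h against that with control siRNA at 72 h; gray squares count all probes measured on both arrays within the axes (log color scale), the solid line marks equal levels and the dotted lines 2-fold. The 14 member probes (blue) lie along the solid line at differences of -0.18 to 0.09, while 7 of the 8 probes for 2C-like markers measured on both arrays (orange) lie above the upper dotted line.

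Around the members, 50 further telomere genes in 4 lists had 68 probes, of which 65 passed the filter. The median log2 difference at 72 h of the 62 measured was -0.04. At 72 h 2 of the 65 were higher by over 1.5-fold (5.52% of all probes) and 0 were lower (2.37%). Of these only Ercc4 was measured on both arrays. The other was the bound of an Hmbox1 probe well above background only on the Rif1 siRNA arrays. That probe passed the filter through those arrays and could only be called higher. The other factors of telomerase (11 genes, 12 probes) had differences of -0.26 to 0.13 with a median of -0.10, and 0 passed 1.5-fold. In this list Terc, the RNA template, had levels of 0.0698, 0.0604, 0.0705 and 0.0660 for untreated cells, control siRNA and Rif1 siRNA at 48 h and 72 h. The partners of Dkc1 in the same particle gave log2 differences at 72 h of -0.18 for Nhp2, -0.12 for Nop10 and -0.01 for Gar1, all within the software error. At 48 h they were -0.21 for Nhp2, just beyond the software error of 0.20, -0.20 for Nop10 and -0.06 for Gar1.

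The genes of the CST complex and of end processing (11 genes, 13 of 14 probes passed) had a median of -0.09 at 72 h, and 1 passed 1.5-fold. This was Ercc4 (A_51_P210082, chr16:13148749-13148808 of mm9), the catalytic subunit of the XPF-ERCC1 nuclease, which can trim overhangs at unprotected telomeres. Its levels were 2.02 in untreated cells, 2.24 with the control siRNA, 5.67 with Rif1 siRNA at 48 h and 5.35 at 72 h. It was 2.39-fold higher than the control at 72 h and 2.53-fold higher at 48 h, and in the limma fit its log2 difference was 1.37 (SE 0.09, adjusted p = 0.0201), higher on 2 of 2 Rif1 siRNA arrays. Its partner Ercc1 had a difference of -0.09 at 72 h.

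The shelterin partners (9 of 11 genes with probes, 13 of 14 probes passed) had a median of -0.00209 and 1 probe past 1.5-fold at 72 h, for Hmbox1, which encodes a telomere-binding protein. Hmbox1 was named after its values were seen, because its 3 probes disagreed. A_51_P399000 was not well above background in untreated cells or with the control siRNA and was at least 5.17-fold higher at 72 h, with levels of 0.00864 at 48 h and 0.0820 at 72 h. A_52_P518434 had a log2 difference of 0.35 and A_55_P2175275 one of -0.44 at 72 h. The genes of telomere recombination and signalling (17 genes, 27 of 28 probes passed) had a median of 0.01, and 0 passed 1.5-fold.

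By contrast, 8 of 9 probes for 2C-like markers passed 2-fold at 72 h, all of them higher (3.84% of all probes passed 2-fold in either direction). They included Zscan4c and Zscan4f, whose products are known for lengthening telomeres in ES cells. Zscan4c A_55_P2007017 had levels of 0.987 in untreated cells, 2.29 with the control siRNA, 39.2 with Rif1 siRNA at 48 h and 49.5 at 72 h, and was 21.6-fold higher than the control at 72 h. The remaining probe of the list, Zfp352 A_55_P2060343, had a log2 difference of 0.12. The other Zfp352 probe, A_55_P2182056, was among the 8, so the probes of this gene disagreed. It was well above background only on the Rif1 siRNA arrays and passed the filter through them. Its level was 0.0207 with the control siRNA and 0.421 at 72 h, a bound of 20.4-fold. The part of 2C-like cells in the members' levels was not tested.

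**Figure D5:**
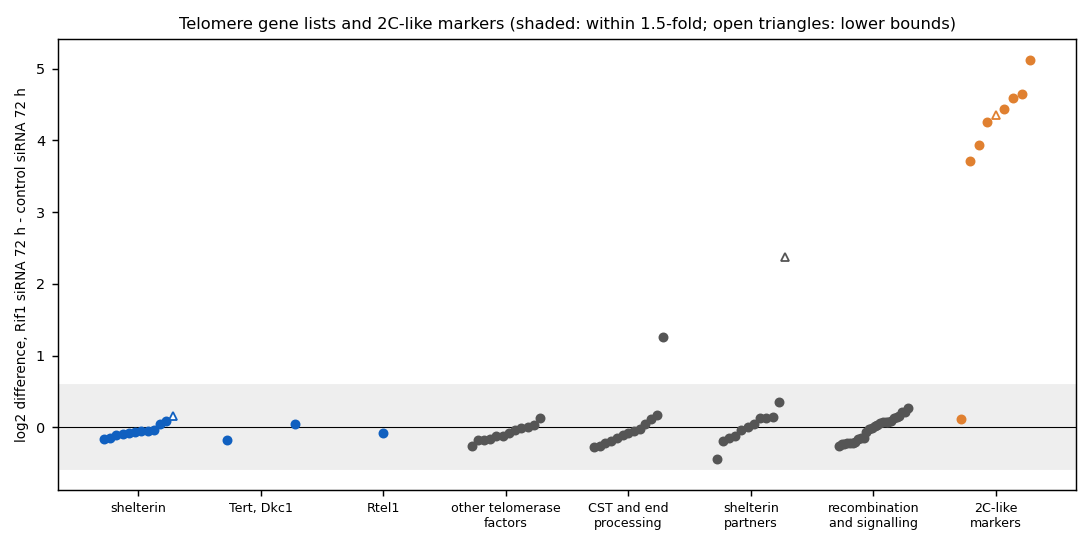
Log2 level with Rif1 siRNA minus that with control siRNA, both at 72 h, for each probe of the member genes (blue), of 4 further telomere gene lists (gray) and of 2C-like markers (orange). Open triangles are bounds and the shaded band is 1.5-fold. Outside the band lie Ercc4 (1.25), the bound of 1 Hmbox1 probe (2.37) and 8 probes for 2C-like markers, 1 of them (Zfp352) a bound.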

How the data were processed

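Total RNA of E14tg2a cells was measured on 4 one-color Agilent arrays (probe positions on mm9). The authors ran the Agilent Feature Extraction software (11.5.1.1) with default settings. For every spot the deposited files hold a processed intensity, background-subtracted and detrended, with its error and flags. The authors also deposited a linear ratio of each processed signal to the array's 75th percentile. The medians of these ratios were 0.0619, 0.0601, 0.0637 and 0.0634 for untreated cells, control siRNA and Rif1 siRNA at 48 h and 72 h, and they matched the levels used here within 0.000442 log2 units, so their scale and direction are known.

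Each processed signal was divided by the 75th percentile of the array's 43020 non-control spots, and log2 was taken. Outlier spots (120 to 152 an array) were left out, 0 spots were saturated, and spots of 1 probe were averaged. A probe passed the filter if its signal was at or above the 20th percentile on at least 1 array and it was detected or compromised on at least 2 arrays, one reading of a rule that the methods leave partly open. The software's errors were averaged over the spots of a probe and combined in quadrature for a difference. A difference past 1 such error is called beyond it, also for Pot1b, whose level is a mean over spots. The median SD of repeated spots was added as a second error after the data were seen. A probe not well above background on 1 side has only a bound. It is set by the dimmest level that the array measured well above background (0.0236, 0.0159, 0.00779 and 0.00543 in the order above) or its own signal if higher. Where its own signal is higher, the bound is the plain ratio of the signals and the true fold could be lower. Precision is limited by having 1 array a condition.

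Every member was named with all its probes, as were Rif1, listed telomere genes past 1.5-fold at 72 h and measured on both arrays, and the 3 nearest profiles to the widest member. The members, lists and rule were chosen with earlier results of these data known. Gene names are those of the array files, and 14 of the 16 member probes matched a RefSeq transcript of the same symbol (the 2 dim Pot1a probes did not). An mm9 annotation was not used here, so whether a probe lies in an exon or UTR is not given. Python 3.11.15 (pandas 2.3.3, numpy 2.4.6) and R 4.3.3 (limma 3.58.1, Benjamini-Hochberg adjustment) were used, and the steps were tested on simulated data. Quantile normalization, normexp with an offset of 50, the authors' ratios, outlier spots kept, only probes well above background on all 4 arrays, the limma fit of 2 against 2 arrays and 1 value a gene were tried as alternatives.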

Additional observations from a re-analysis of the deposited data

How the results depend on the processing

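The counts of members past 2-fold (0 in each of the 4 comparisons) and past 1.5-fold (0 at 72 h) were the same under each alternative run for them. The 1 probe past 1.5-fold at 48 h, the bound of Pot1a A_66_P106584, became 0 with normexp (offset 50), with quantile normalization and with only probes well above background on all 4 arrays. The median of the members at 72 h ranged from -0.08 to -0.04 over 7 alternatives, and at 48 h from -0.08 to -0.05 over 6. The count of 2 probes of the telomere lists past 1.5-fold at 72 h (Ercc4 and the bound of an Hmbox1 probe) stayed 2 under both alternatives. Of 258 values of single member probes, 257 moved by less than 0.26 log2 units, the SD over all probes between the control siRNA and untreated arrays. The exception was the difference between 72 h and 48 h for Pot1a A_66_P106584, which was -0.53 and became -0.20 with normexp. The limit of 0.26 exceeds every measured member difference at 72 h, so the tally does not show whether their signs held. In the limma fit Terf2 A_55_P2034345 was at 0.06 in place of -0.11, Pot1b at 0.04 in place of -0.07 and Tert at -0.12 in place of 0.04. Terf2ip A_52_P381806 was at -0.22 in place of -0.07. With normexp the median of all probes at 72 h moved from -0.07 to -0.11, and the shares of all probes past 1.5-fold and 2-fold were 4.09% and 1.95% at 72 h, 5.22% and 2.14% at 48 h, 2.01% and 0.725% for control siRNA against untreated cells, and 1.25% and 0.321% between the Rif1 siRNA arrays. With the error from repeated spots in place of the software's, chosen after seeing the data, the members beyond it numbered 5 in place of 0 at 72 h, 7 in place of 3 at 48 h and 6 in place of 0 for control siRNA against untreated cells. No paired analysis was possible because the conditions, with 1 array each, share fewer than 2 replicate numbers. With 1 array a condition, the spread between cultures is unknown. Harvest time and the 48 h treatment cannot be told apart, since the control array is of 72 h.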
